A study of Mus musculus with 53 samples.

Results

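Hox genes encode homeodomain transcription factors that lie in 4 clusters, HoxA to HoxD, and this account follows 38 of them, 10 in HoxA, 10 in HoxB, 9 in HoxC and 9 in HoxD. They were picked by symbol from the 43432 genes listed in each of the study's deposited RNA tables, and all 38 were found in both. Within a cluster the genes are numbered from paralogue group 1 at one end to 13 at the other. As background, low numbers are switched on early and towards the head, and high numbers late and towards the tail and the tip of the limb, so the combination that a fibroblast keeps in culture records where in the body it came from. HoxA and HoxD pattern the limb along its length, while HoxB and HoxC act mainly in the trunk, with parts of HoxC also used in the hindlimb.

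The cells were mouse embryonic fibroblasts (labelled MEF), a mixed primary culture made from embryos. WT cells were wild type and KO cells lacked ANP32E, a chaperone that takes the histone variant H2A.Z off chromatin. For the decitabine table, cells of both genotypes received DMSO (the solvent) or decitabine (DAC), an inhibitor of DNA methylation, with 2 libraries per genotype in DMSO and 3 per genotype in DAC. For the siRNA table each genotype got H2AZ siRNA, which targets H2A.Z, or the control called NT siRNA, and every one of these 4 groups has 3 libraries. Doses, times, the age of the embryos, how the knockout was made and whether a genotype came from 1 culture or several are not stated in the labels. Most titles call the libraries biological replicates, but nothing ties them to separate embryos, so p-values measure the spread between these libraries only. The 31 CUT&Tag samples of the 53 in the series were not analysed here.

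Library totals were 27503472 to 36910532 reads in the decitabine table and 31928320 to 47172427 in the siRNA table. Anp32e stood at 14.5 ± 0.0299 FPKM in WT DMSO and 5.09 ± 0.313 in KO DMSO (SD, n = 2 each), lower but not absent. The H2A.Z gene H2afz fell from 202 ± 2.56 to 17.2 ± 0.476 RPKM with H2AZ siRNA in WT and from 194 ± 8.49 to 27.9 ± 2.18 in KO (SD, n = 3 each). Ddx3y, a Y-linked gene, was at most 0.0721 FPKM in the 5 WT libraries of the decitabine table and 3.02 to 5.43 FPKM in the 5 KO libraries, so the genotypes also differ in sex, and genotype and sex cannot be told apart. Xist, expressed from the inactive X chromosome of female cells, was at 136 to 210 FPKM in WT libraries, 0.579 to 0.923 in KO DMSO and 28.5 to 44.4 in KO DAC. KO DMSO and KO DAC therefore differ in Xist as well as in treatment, and its part in the decitabine results in KO was not tested. Both KO DMSO libraries stood apart on the first principal component of the decitabine table, at -66.8 and -66.2 against 1.9 to 29.9 for the other 8. Fibroblast markers were high in every library, with 10 genes summing to 1839 to 3472 FPKM and 1108 to 1319 RPKM. Mesothelial markers, which mark the lining of body cavities, differed between genotypes and are given below beside the Hox genes they move with. In bulk RNA, fewer cells of a type and less RNA per cell cannot be told apart.

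On mm10 the 4 clusters lie on separate chromosomes: HoxA at chr6:52162417-52260880, HoxB at chr11:96194316-96368254, HoxC at chr15:102921131-103036856 and HoxD at chr2:74668225-74765142. Decitabine acts on methylation at CG pairs, so the CG pairs before the start sites are shown. RefSeq promoter windows on GRCm38.p6 (the assembly also called mm10) were matched for 22 members, with 9 in HoxA, 3 in HoxB, 1 in HoxC and 9 in HoxD. The 4 below are the most strongly expressed HoxD and HoxA members in WT DMSO, Hoxd13 and Hoxa13, a HoxB member tested in the decitabine table, Hoxb8, and the only HoxC window, Hoxc4. Each is the 250 bases just before the RefSeq start site, 5′ to 3′ on the gene's strand, with CG pairs in capitals.

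Hoxd13: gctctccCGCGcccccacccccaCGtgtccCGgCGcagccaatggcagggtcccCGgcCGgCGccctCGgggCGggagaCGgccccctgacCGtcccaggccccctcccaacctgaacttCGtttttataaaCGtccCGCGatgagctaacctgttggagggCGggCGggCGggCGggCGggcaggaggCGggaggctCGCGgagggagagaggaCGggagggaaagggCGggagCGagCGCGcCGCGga

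Hoxa13: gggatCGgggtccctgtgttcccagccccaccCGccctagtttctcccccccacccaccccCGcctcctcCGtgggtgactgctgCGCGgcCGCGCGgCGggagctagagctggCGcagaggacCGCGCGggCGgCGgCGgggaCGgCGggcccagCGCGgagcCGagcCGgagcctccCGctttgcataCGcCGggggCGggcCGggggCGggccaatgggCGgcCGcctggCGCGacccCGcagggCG

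Hoxb8: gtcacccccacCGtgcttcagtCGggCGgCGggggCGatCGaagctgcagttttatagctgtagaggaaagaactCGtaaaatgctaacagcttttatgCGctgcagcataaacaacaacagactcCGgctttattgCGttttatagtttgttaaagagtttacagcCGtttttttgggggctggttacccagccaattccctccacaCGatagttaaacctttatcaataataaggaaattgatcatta

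Hoxc4: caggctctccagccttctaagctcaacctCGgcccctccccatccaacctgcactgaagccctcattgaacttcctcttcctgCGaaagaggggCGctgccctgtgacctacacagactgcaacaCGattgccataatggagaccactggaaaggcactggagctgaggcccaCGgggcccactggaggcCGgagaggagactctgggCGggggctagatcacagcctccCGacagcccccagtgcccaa

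Hoxd13 (chr2:74667975-74668224, plus strand) holds 31 CG pairs and Hoxa13 (chr6:52260881-52261130, minus strand) holds 35. Hoxb8 (chr11:96281655-96281904, plus) holds 12 and Hoxc4 (chr15:103034145-103034394, plus) holds 8, and both of these windows fall inside the span that RefSeq gives for the gene's longer transcripts. The median over all 32851 mouse promoter windows of this length was 6 CG pairs, so Hoxd13 had more than 94.8% of them and Hoxa13 more than 97%, while Hoxb8 and Hoxc4 had more than 66.5% and 57%. The sequence TATAAA, searched on both strands, was present in the windows of Hoxd13 and Hoxb8 but in neither of the other two, and in 12.4% of all windows. Methylation was not measured in these RNA tables.

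Values are FPKM in the decitabine table and RPKM in the siRNA table, both per length of the gene, so levels of different genes can be set side by side within a table. Differences between groups are limma differences in log2(value + 1) with their SE, which understate the change of low genes, and a member is called changed at a Benjamini-Hochberg adjusted p under 0.05 over all genes tested. Most genes whose libraries are said not to overlap were named for their large called changes, so that separation is description only. The share of such genes over all genes is not given. A gene was tested if it reached 1 in at least 2 libraries (decitabine table) or 3 libraries (siRNA table). That left 24 members in the decitabine table, 8 of HoxA, 5 of HoxB, 5 of HoxC and 6 of HoxD, and 11 in the siRNA table, 5 of HoxA, 1 of HoxB and 5 of HoxD. Of the 38 members, 13 never rose above 1 in any library: Hoxa2, Hoxa3, Hoxb1, Hoxb2, Hoxb3, Hoxb4, Hoxb13, Hoxc11, Hoxc12, Hoxc13, Hoxd1, Hoxd3 and Hoxd4. They include every HoxA, HoxB and HoxD member numbered 1 to 3.

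**Figure D1:**
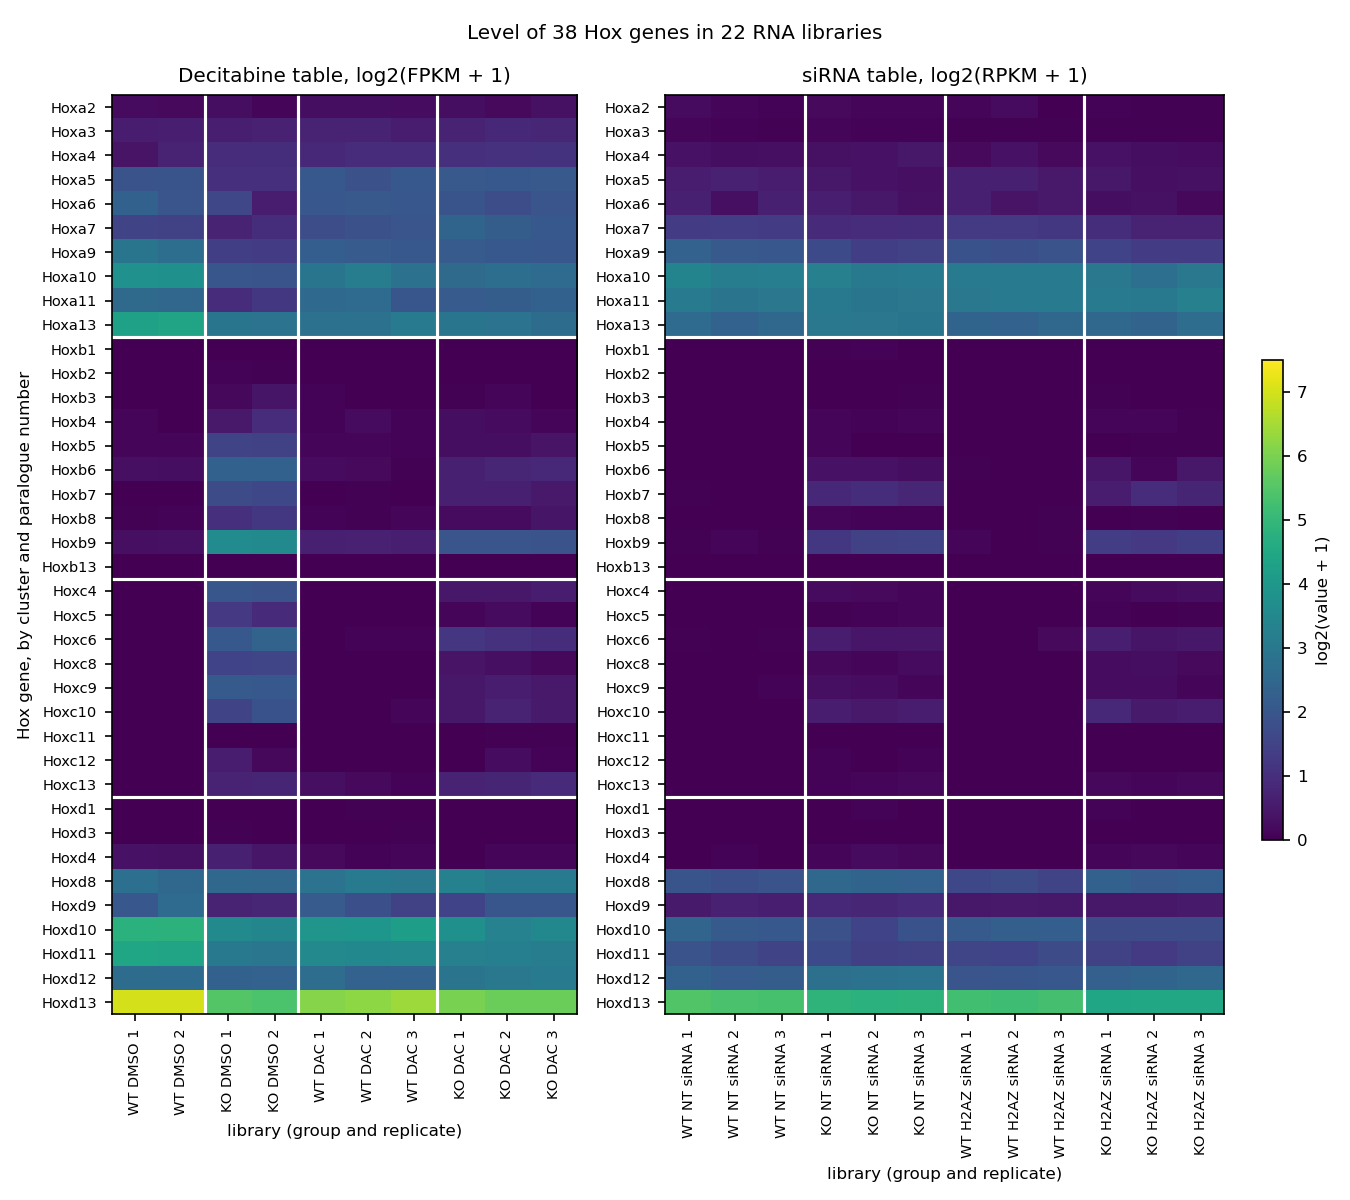
Level of the 38 Hox genes, ordered by cluster and paralogue number (rows), in the 22 RNA libraries (columns), as log2(FPKM + 1) on the left and log2(RPKM + 1) on the right. Hoxd13 is the brightest row in every library, and the HoxB and HoxC blocks carry signal in KO libraries, most in the 2 KO DMSO libraries.

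WT fibroblasts in DMSO expressed the 5′ ends of HoxD and HoxA and almost nothing of HoxB and HoxC. Hoxd13, the last HoxD gene and a regulator of digits, was the highest member in all 8 groups, with 128.5 and 127.7 FPKM in the 2 WT DMSO libraries. It alone made up 52.8% of the summed FPKM of all members there. Next came Hoxd10 (27.02 ± 0.287), Hoxd11 (20.2 ± 0.685), Hoxa13 (19.1 ± 0.840) and Hoxa10 (12.7 ± 0.0569), all SD with n = 2, of which Hoxd11 and Hoxa13 overlapped. Hoxa9 followed at 5.60 to 6.58 FPKM and Hoxd8 at 4.64 to 5.71, which overlapped. Hoxd12 (5.17 to 5.25) and Hoxa11 (4.57 to 5.003) each overlapped Hoxd8 but not each other. Members with paralogue numbers 9 to 13 held 93.8% of the summed FPKM, numbers 5 to 8 held 5.62% and numbers 1 to 4 held 0.623%.

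Each cluster's share shows the same contrast. HoxD summed to 189.9 and 190.4 FPKM in the 2 WT DMSO libraries and HoxA to 51.5 and 52.6, whereas HoxB summed to 0.610 and 0.708. All 9 HoxC members had 0 reads in both WT DMSO libraries, although 7 of them had at least 10 reads in each KO DMSO library. A gene at 0 reads may still be transcribed below what these totals can show.

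The first question is how the knockout cells differed from wild type under the solvent. In KO DMSO the HoxA and HoxD members were lower and HoxB and HoxC members appeared. Of the 24 members tested, 11 were higher and 11 lower in KO, where 42.5% of all 16435 genes tested were called (19.6% higher, 22.9% lower). HoxA had 7 lower and 1 higher of 8, with a median difference of -1.25, and HoxD had 4 lower of 6, with a median of -1.36, against -0.04 over all genes tested. HoxB and HoxC had 5 of 5 higher each, but these members passed the filter only through KO libraries and so had to differ; their values, not their number, carry the description.

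Hoxa9, Hoxa10, Hoxa11, Hoxa13, Hoxd9, Hoxd10, Hoxd11 and Hoxd13 all fell in KO DMSO, by between 1.31 and 1.80 on this scale. Hoxa10, which acts in the upper hindlimb and the uterus, had 12.8 and 12.7 FPKM in WT and 2.99 and 2.88 in KO (-1.80 ± 0.11, adjusted p = 3e-06). Hoxd13 had 44.0 and 40.7 FPKM in KO (-1.58 ± 0.10, adjusted p = 3.4e-06). The groups did not overlap for either gene, and the WT means were 4.34 and 3.03 times those in KO. Hoxd9, a limb and lumbar gene, spread more, with 3.11 and 5.16 FPKM in WT and 0.647 and 0.739 in KO (-1.57 ± 0.27, adjusted p = 0.0017). Hoxa9, also active in blood stem cells, went from 6.58 and 5.60 to 1.62 and 1.495 FPKM (-1.47 ± 0.10, adjusted p = 6.4e-06). Hoxa13, a partner of Hoxd13 in the hand and foot, had 18.6 and 19.7 FPKM in WT and 6.55 and 6.27 in KO (-1.44 ± 0.11, adjusted p = 1.3e-05).

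The exceptions in these clusters were at other positions. Hoxd8 had 4.64 to 5.71 FPKM in WT and 4.58 to 4.82 in KO (-0.11 ± 0.11, adjusted p = 0.46), and Hoxd12 had 5.17 to 5.25 and 4.02 to 4.12 (-0.29 ± 0.12, adjusted p = 0.078). Hoxa4 was the HoxA member called higher, at 0.327 and 0.678 FPKM in WT and 0.935 and 0.970 in KO (0.39 ± 0.12, adjusted p = 0.034), and leaving out either KO DMSO library, among other settings, ended that call. It too passed the filter only through KO libraries, those in DAC (1.02 to 1.12 FPKM). The part of Hoxd13 in the sum of all members went from 52.8% in WT DMSO to 34.2% in KO DMSO.

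**Figure D2:**
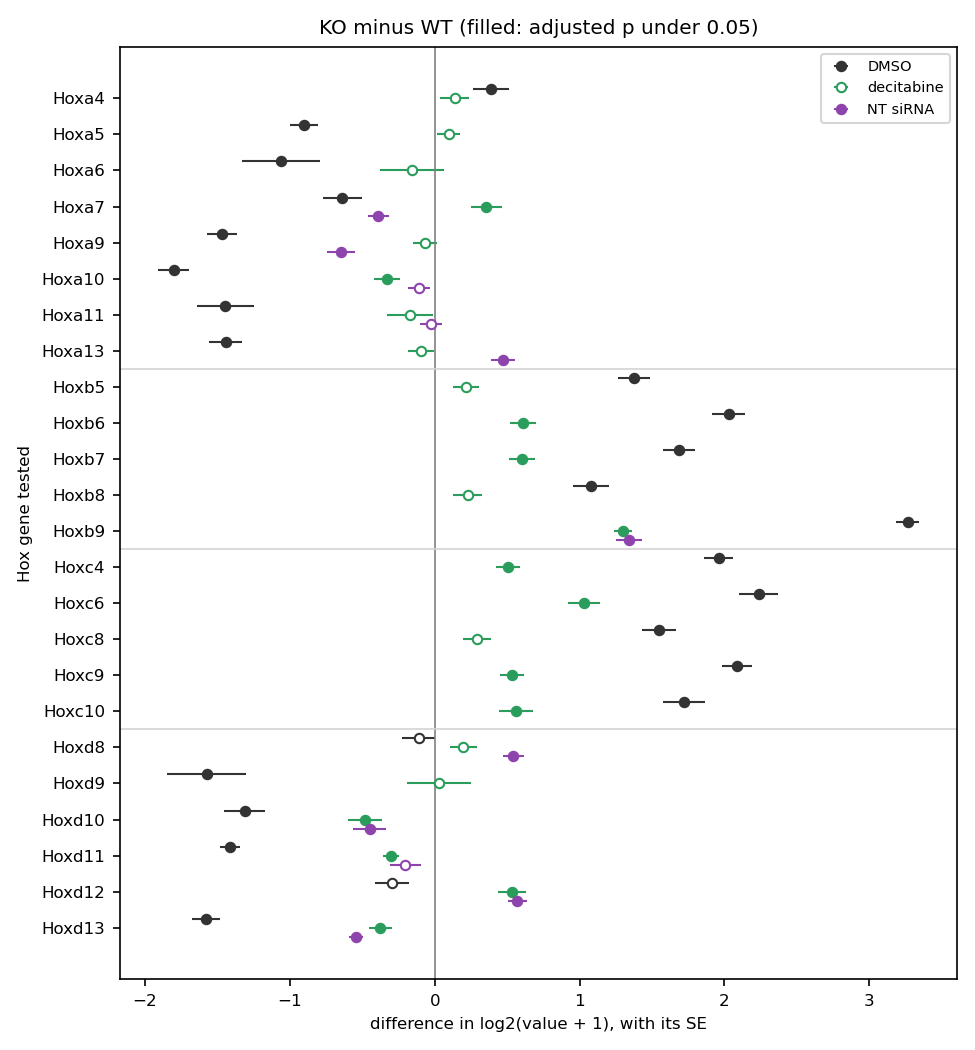
KO minus WT difference in log2(value + 1) with its SE (x axis) for each Hox gene tested (y axis), under DMSO, under decitabine and with NT siRNA; filled points have an adjusted p under 0.05. In DMSO, 11 members lie above 0 and 11 below it with filled points, and the DAC points lie nearer to 0 for most of them.

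HoxB and HoxC transcripts were plain in KO DMSO. Hoxb9, which patterns the ribs and sternum, led them with 11.3 and 10.8 FPKM, against 0.241 and 0.259 in WT (3.27 ± 0.08, adjusted p = 2.3e-08), a ratio of means of 44.1. Hoxb6 had 3.98 and 4.00 FPKM against 0.232 and 0.210 (2.03 ± 0.11, adjusted p = 1.9e-06). Hoxb7 had 2.35 and 2.09 FPKM in KO and 0 reads in WT, at least 70.8-fold higher when WT is set to the floor of 3 reads over its 2 libraries. The libraries of the 2 genotypes stayed far apart for all 3 genes.

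For HoxC the same floor gives lower bounds. Hoxc6, a thoracic gene, had 3.20 and 4.28 FPKM in KO DMSO, at least 188.2-fold above the WT floor (2.24 ± 0.13, adjusted p = 2.9e-06). Hoxc9, also thoracic, had 3.35 and 3.16 FPKM, at least 163.5-fold (2.09 ± 0.10, adjusted p = 8.6e-07). Hoxc4 had 2.99 and 2.80, at least 153.6-fold, Hoxc8 at least 113.6-fold and Hoxc10, a hindlimb and lumbar gene, at least 92.7-fold. Hoxc5 and Hoxc13, which were not tested, had 200 and 100 reads over the 2 KO libraries and none in WT. Summed over members, HoxB held 17.1% and HoxC 13.2% of the members' FPKM in KO DMSO, and HoxD 56.1%.

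Leaving out KO DMSO replicate 1 or replicate 2 left 16 members tested and 13 called (2 higher, 11 lower), because with 1 library fewer the HoxB and HoxC genes reached 1 FPKM in too few libraries. With the same 24 members kept in the fit, 21 were called without either one. All 5 comparisons of the decitabine table come from 1 fit, and 3 of its contrasts use the KO DMSO libraries, so they are not independent of each other.

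Markers of mesothelium moved with HoxB and HoxC. In sum, 11 such genes reached 10.1 to 12.1 FPKM in WT DMSO, 1052 to 1087 in KO DMSO, 43.2 to 57.2 in WT DAC and 123 to 144 in KO DAC, with Lrrn4 and Gpm6a at 0 in WT DMSO. Of these 11 genes 9 were higher in KO DMSO and none lower (19.6% and 22.9% of all genes tested). Markers at or near 0 in WT DMSO passed the filter only through other groups, which favoured their rise, so the count is no support. Upk3b, a surface protein of mesothelium, had 0.0820 ± 0.0373 FPKM in WT DMSO and 384 ± 17.1 in KO DMSO (SD, n = 2 each). Their part in the Hox result was not tested. The 10 fibroblast markers summed to 3349 to 3472 FPKM in WT DMSO and 1915 to 1958 in KO DMSO, with 7 lower and 1 higher (22.9% and 19.6% of all genes tested). In the siRNA table the direction was reversed. There 6 were higher and 1 lower in KO with NT siRNA (23.7% and 40.4% of all genes tested). With H2AZ siRNA 5 were higher and 1 lower (20.2% and 42.7%).

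**Figure D3:**
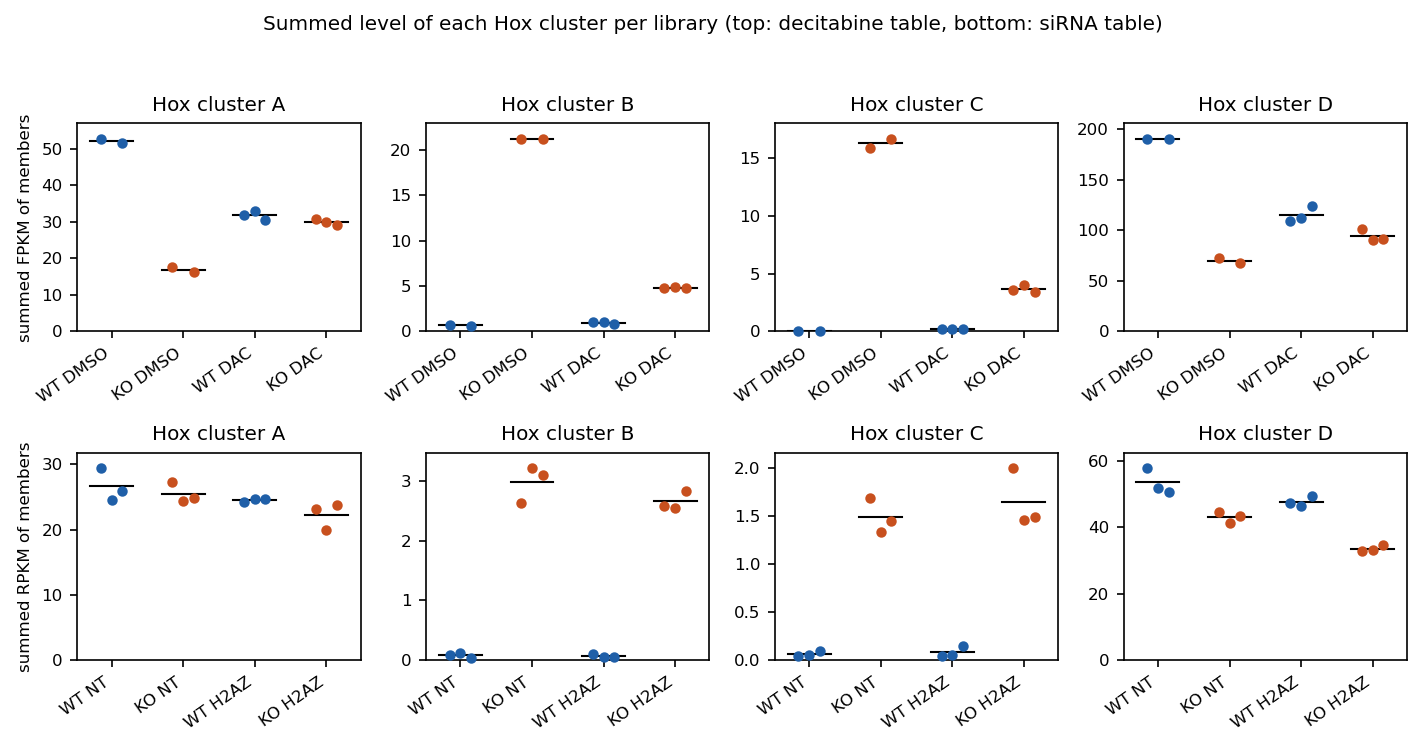
Summed level of the members of each Hox cluster per library (points, blue for WT and orange for KO; line, mean), in FPKM for the decitabine table (top) and RPKM for the siRNA table (bottom). HoxB and HoxC sums of KO libraries lie above those of all WT libraries in both tables, highest at 21.2 and 16.7 FPKM in KO DMSO.

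Under decitabine the same genotype comparison gave smaller differences. Of 24 members 9 were higher and 4 lower in KO (22.7% of all genes tested were called, 11.1% higher and 11.6% lower), with 6 of 8 HoxA members not called. Of the 9 higher, 7 were HoxB and HoxC members that passed the filter only through KO libraries, so that count is no support. Hoxb9 had 2.97, 2.92 and 2.81 FPKM in KO DAC and 0.588, 0.608 and 0.558 in WT DAC (1.30 ± 0.06, adjusted p = 4.9e-06), with no overlap. Hoxc6 had 1.28, 1.12 and 0.956 in KO and 0, 0.0490 and 0.0519 in WT (1.03 ± 0.11, adjusted p = 0.00031). The other HoxB and HoxC members called higher were Hoxb6, Hoxb7, Hoxc4, Hoxc9 and Hoxc10, by 0.51 to 0.61.

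Within HoxD the genes split under decitabine. Hoxd12, which also takes part in digit formation, was higher in KO, with 6.34, 7.07 and 7.63 FPKM against 5.35, 4.14 and 4.16 (0.53 ± 0.10, adjusted p = 0.0051). Hoxd13 was lower in KO, with 63.2, 55.4 and 54.8 FPKM against 69.4, 73.6 and 83.0 (-0.38 ± 0.08, adjusted p = 0.01). Hoxd11, a forearm and lower leg gene, was lower by 0.30 on this scale, with 8.70, 8.44 and 7.82 FPKM against 10.6, 10.3 and 10.5 (adjusted p = 0.0055). The libraries of the 2 genotypes did not overlap for any of the 3. Hoxd10 (-0.48 ± 0.12, adjusted p = 0.019) and Hoxa10 (-0.33 ± 0.09, adjusted p = 0.03) were also lower, and Hoxa7 was higher (0.36 ± 0.11, adjusted p = 0.047), but these 3 calls ended when only the 6 DAC libraries were fitted, which left 5 members called of 16 tested. Over all settings with a test of the member, Hoxa7 lost its call in 15 of 20, Hoxa10 in 6 of 21 and Hoxd10 in 3 of 21. Leaving out KO DMSO replicate 1 or 2, which enter the shared fit, left 7 called of 16, and 12 of 24 with the same members kept.

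The second question is how decitabine and DMSO libraries differed within each genotype. In WT, the highest members fell. Of 24 members 6 were lower and 2 higher with DAC (28.3% of all genes tested were called, 14.5% higher and 13.8% lower), and the 6 were Hoxa9, Hoxa10, Hoxa13, Hoxd10, Hoxd11 and Hoxd13. Hoxa13 fell most, from 18.6 and 19.7 FPKM to 6.16, 5.95 and 7.37 (-1.43 ± 0.10, adjusted p = 3.4e-05), with a DMSO mean 2.95 times the DAC mean. Hoxd11 went from 20.7 and 19.7 to 10.6, 10.3 and 10.5 FPKM (-0.88 ± 0.06, adjusted p = 3e-05), and Hoxa10 from 12.8 and 12.7 to 6.57, 8.02 and 6.07 (-0.81 ± 0.10, adjusted p = 0.00051). Hoxd10 had 26.8 and 27.2 FPKM in DMSO and 13.9, 14.2 and 17.6 in DAC (-0.79 ± 0.13, adjusted p = 0.0023). In none of these 4 did the treated and untreated libraries overlap.

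Members that lie between these genes were not called in WT. Hoxa11, which lies between Hoxa10 and Hoxa13, had 5.003 and 4.57 FPKM in DMSO and 4.93, 5.16 and 3.03 in DAC (-0.13 ± 0.18, adjusted p = 0.64). Hoxd12, between Hoxd11 and Hoxd13, had 5.25 and 5.17 FPKM and then 5.35, 4.14 and 4.16 (-0.17 ± 0.11, adjusted p = 0.29). Hoxd8 was higher with DAC, from 5.71 and 4.64 to 6.26, 7.32 and 7.08 FPKM (0.35 ± 0.10, adjusted p = 0.032), a call lost in 6 of the 21 settings tried. Hoxb9 was higher from a low base, at 0.241 and 0.259 FPKM and then 0.588, 0.608 and 0.558 (0.34 ± 0.07, adjusted p = 0.0078). After median centring the split was 4 higher and 6 lower. Hoxc13 had 0 reads in WT DMSO and 18, 12 and 4 reads in the WT DAC libraries.

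In KO, the clusters differed between DAC and DMSO in opposite directions. These libraries also differed in Xist and mesothelial markers, so the effect of the drug cannot be told apart from these. Of 24 members 11 were higher and 10 lower with DAC (45.2% of all genes tested were called, 23.7% higher and 21.6% lower), with 6 of 8 HoxA and 5 of 6 HoxD members higher and the HoxB and HoxC members tested lower. The median difference was 0.77 for HoxA, 0.55 for HoxD, -1.18 for HoxB and -1.26 for HoxC, against 0.01 over all genes tested. As most HoxB and HoxC members passed the filter only through KO DMSO, they had to be lower here.

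Among the members that rose in KO were genes of the middle of HoxA. Hoxa7 had 0.677 and 0.976 FPKM in KO DMSO and 4.30, 3.62 and 3.23 in KO DAC (1.37 ± 0.12, adjusted p = 3.3e-05). Hoxa11, a forearm and lower leg gene, had 0.954 and 1.31 FPKM and then 3.41, 3.64 and 4.03 (1.14 ± 0.18, adjusted p = 0.00088). Hoxd9 had 0.647 and 0.739 FPKM and then 1.83, 3.03 and 3.02 (1.0797 ± 0.248, adjusted p = 0.0073), and Hoxa5, needed in the developing lung, had 1.03 and 1.06 and then 3.26, 3.22 and 3.31 (1.06 ± 0.09, adjusted p = 2e-05). No treated library overlapped an untreated one for these 4. Hoxd13 rose less, to 63.2, 55.4 and 54.8 FPKM (0.44 ± 0.09, adjusted p = 0.0037), while Hoxa13, at 6.55 and 6.27 and then 6.52, 6.24 and 5.30 FPKM (-0.08 ± 0.10, adjusted p = 0.55), and Hoxd10 (0.04 ± 0.13, adjusted p = 0.83) were not called.

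Hoxb9 was lower with DAC in KO, from 11.3 and 10.8 to 2.97, 2.92 and 2.81 FPKM (-1.62 ± 0.07, adjusted p = 5.9e-07), and Hoxb6 from 3.98 and 4.00 to 0.563, 0.7495 and 0.786 (-1.56 ± 0.10, adjusted p = 5.5e-06). Hoxc9 went from 3.35 and 3.16 to 0.402, 0.527 and 0.424 FPKM (-1.55 ± 0.09, adjusted p = 3.1e-06), and Hoxc4 from 2.99 and 2.80 to 0.393, 0.399 and 0.475 (-1.45 ± 0.09, adjusted p = 4.2e-06). Their groups did not overlap. Hoxc13 had 0.680 and 0.707 FPKM in KO DMSO and 0.635, 0.715 and 0.859 in KO DAC, too low to be tested. Over all members the HoxB sum went from 21.2 ± 0.0185 (SD, n = 2) to 4.81 ± 0.0809 FPKM (SD, n = 3) and the HoxC sum from 16.3 ± 0.549 to 3.67 ± 0.320. In the same libraries the mesothelial markers summed to 1052 to 1087 FPKM in KO DMSO and 123 to 144 in KO DAC. Of the 11 markers 8 were lower and 2 higher (21.6% and 23.7% of all genes tested). That count is no support, since any of these markers that passed the filter only through KO DMSO had to be lower here. Their part in the fall was not tested.

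Without KO DMSO replicate 1 the count for DAC in KO was 13 of 16 members tested, and without replicate 2 it was 11 of 16, again through the filter; with the same 24 members kept it was 21 and 19, and Hoxa6 and Hoxd11 lost their calls without replicate 2. Each of the 2 genotypes has its own DMSO libraries, and the test of the difference between the 2 decitabine effects is the interaction.

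**Figure D4:**
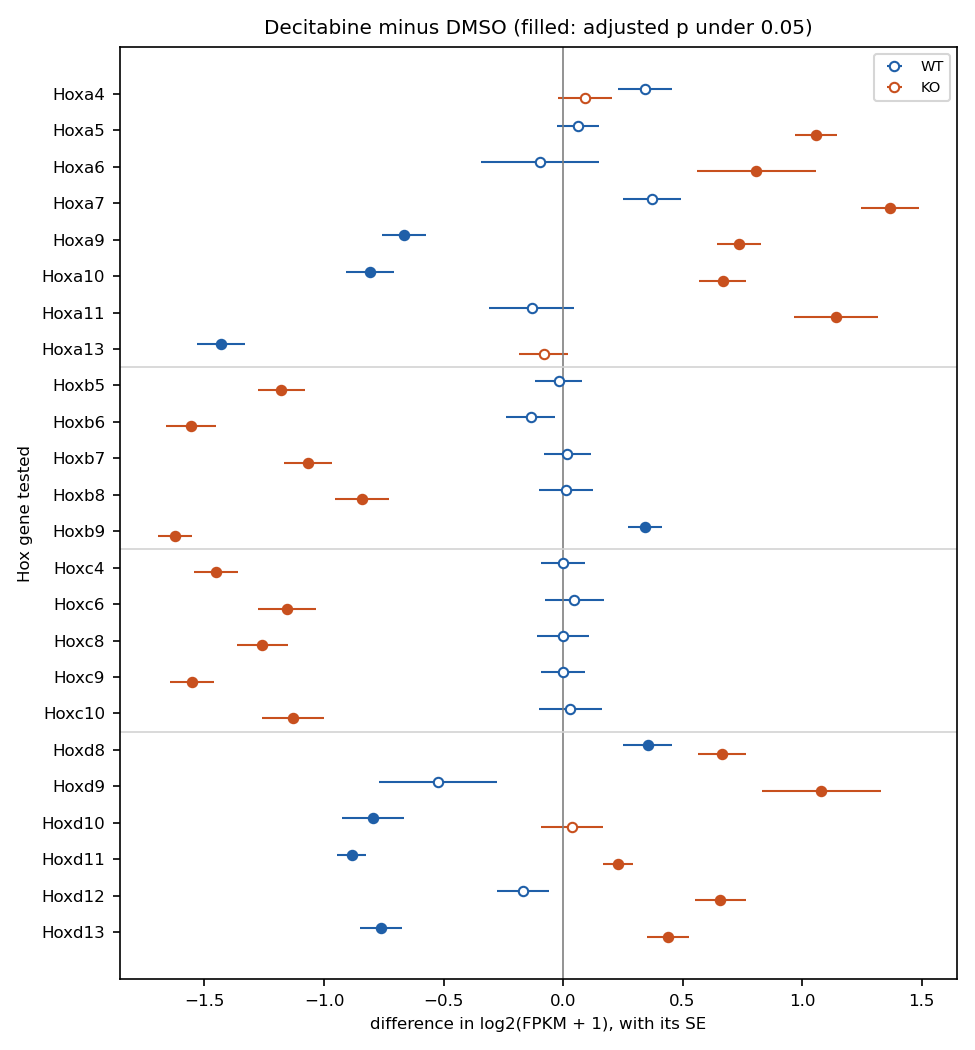
Decitabine minus DMSO difference in log2(FPKM + 1) with its SE (x axis) for each of the 24 Hox genes tested (y axis), in WT (blue) and KO (orange); filled points have an adjusted p under 0.05. HoxA and HoxD members lie left of 0 in WT for 10 of 14 genes and right of 0 in KO for 13 of 14, and HoxB and HoxC members lie left of 0 in KO.

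The interaction, the decitabine effect in KO minus that in WT, was called for 21 of 24 members, 11 higher and 10 lower (24.1% of all genes tested were called, 12.4% higher and 11.7% lower). The 10 lower were the HoxB and HoxC members, which passed the filter only through KO libraries, most of them only through KO DMSO, so for most a lower value in KO DAC was built into their choice, and their count is no support. Positive values came from HoxA and HoxD. Hoxd9 had 1.60 ± 0.35 (adjusted p = 0.011), Hoxa10 1.47 ± 0.14 (adjusted p = 0.00013), Hoxa9 1.40 ± 0.13 (adjusted p = 0.00011) and Hoxa13 1.35 ± 0.14 (adjusted p = 0.00024). For Hoxa9 and Hoxa10 the libraries fell in WT and rose in KO, whereas Hoxa13 fell in WT and was not called in KO. Negative values came from HoxB and HoxC, led by Hoxb9 with -1.97 ± 0.10 (adjusted p = 6e-06), Hoxc9 with -1.55 ± 0.13, Hoxc4 with -1.45 ± 0.13 and Hoxb6 with -1.42 ± 0.15.

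The calls of the negative values differed between tests. limma-voom on the recovered reads, a test of relative change, called 12 members higher and 3 lower of 31 (20.4% of genes called, 9.62% higher and 10.7% lower), and the 3 were Hoxb5, Hoxb9 and Hoxc13. It did not call Hoxb6, Hoxb7, Hoxb8, Hoxc4, Hoxc6, Hoxc8, Hoxc9 and Hoxc10 (adjusted p between 0.073 and 0.18), whose WT libraries held few or no reads. Their log2 fold differences by limma-voom were still negative, from -1.377 ± 0.681 for Hoxb6 to -3.816 ± 1.491 for Hoxc6 (SE). Without KO DMSO replicate 2 the count was 12 of 16 members tested.

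**Figure D5:**
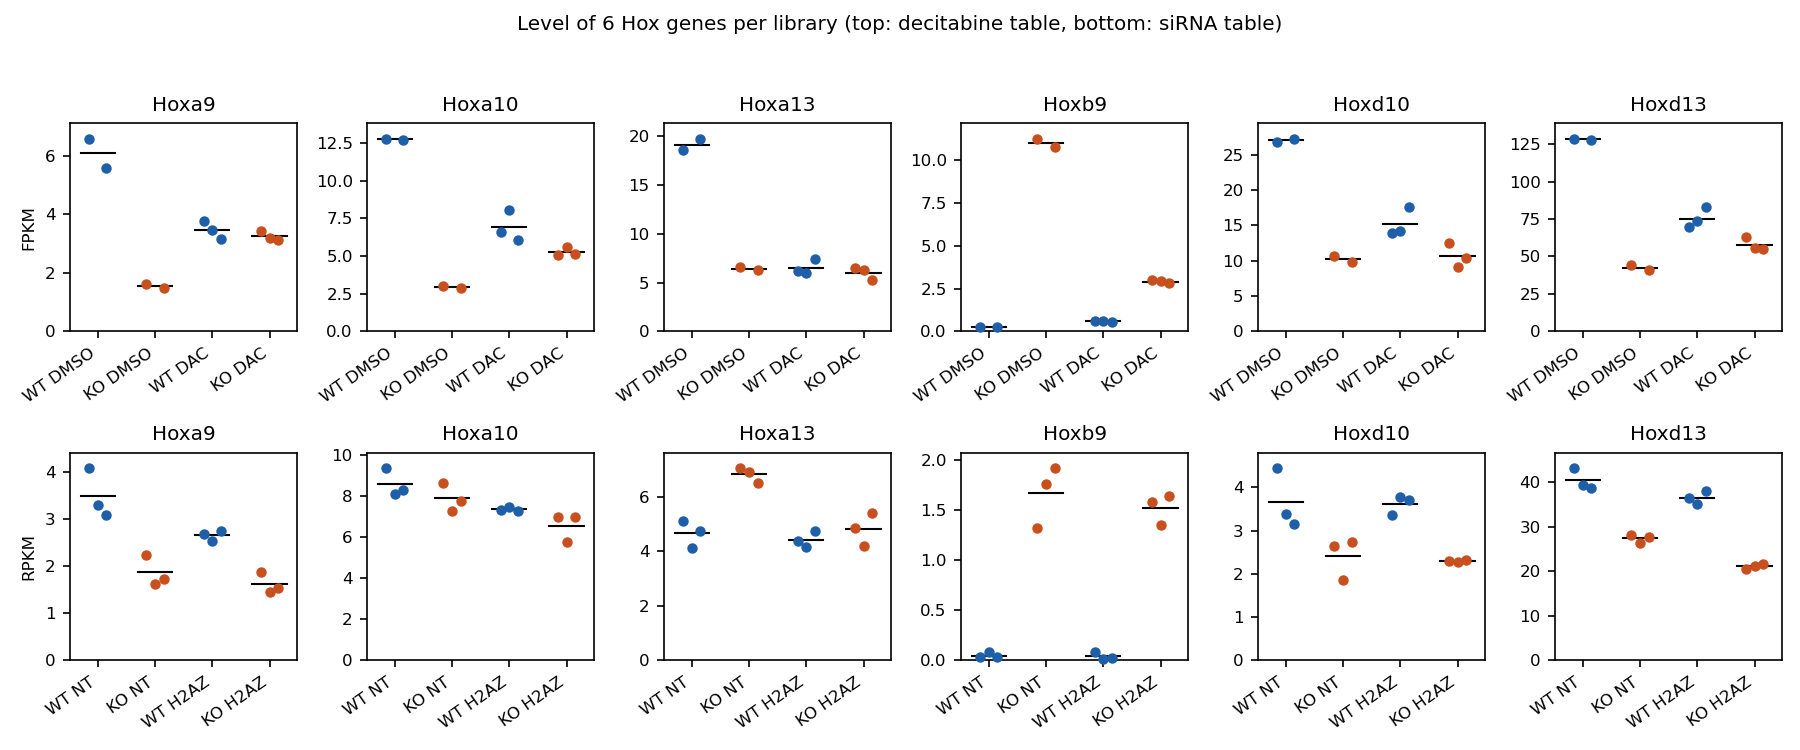
Level of 6 Hox genes in each library (points, blue for WT and orange for KO; line, mean), in FPKM for the decitabine table (top) and RPKM for the siRNA table (bottom). Hoxd13 lies between 127.7 and 128.5 FPKM in WT DMSO and between 40.7 and 44.0 FPKM in KO DMSO. In KO it lies between 26.5 and 28.2 RPKM with NT siRNA and between 20.4 and 21.6 RPKM with H2AZ siRNA. Hoxb9 is at most 0.608 in the WT libraries.

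The siRNA table gives the genotype comparison again, in separate libraries on another scale. Ddx3y was at 0 in WT and 3.08 to 6.73 RPKM in KO with NT siRNA, so genotype and sex cannot be told apart here either. Levels of the 2 tables were normalised separately and are not set against each other. Hoxd13 was again highest, at 43.2, 39.5 and 38.7 RPKM in WT with NT siRNA, followed by Hoxa10 at 9.36, 8.10 and 8.28 and Hoxa11 at 7.72, 6.32 and 6.88. The shares of numbers 9 to 13 were 92.8% in WT and 88.1% in KO.

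With NT siRNA, KO and WT differed in 8 of 11 members, 4 higher and 4 lower (64.1% of all 12668 genes tested were called, 23.7% higher and 40.4% lower). The median difference of all genes tested was -0.096. Hoxb9 had 1.32, 1.76 and 1.92 RPKM in KO and 0.0351, 0.0805 and 0.0306 in WT (1.34 ± 0.09, adjusted p = 2.4e-07), a ratio of means of 34.3, and passed the filter only through KO. Hoxd12 had 5.84, 5.98 and 6.21 RPKM against 4.02, 3.55 and 3.61 (0.57 ± 0.07, adjusted p = 2e-05), and Hoxd8 had 4.78, 4.34 and 4.10 against 2.83, 2.53 and 2.77 (0.54 ± 0.07, adjusted p = 5.7e-05). Hoxa13 was higher in KO here, at 7.05, 6.92 and 6.52 RPKM against 5.12, 4.11 and 4.73 (0.47 ± 0.09, adjusted p = 0.00052). These genes separated the genotypes in all 6 libraries.

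On the lower side, Hoxa9 had 2.23, 1.63 and 1.74 RPKM in KO and 4.08, 3.30 and 3.08 in WT (-0.65 ± 0.10, adjusted p = 0.00017). Hoxd13 had 28.2, 26.5 and 27.6 in KO (-0.54 ± 0.05, adjusted p = 3.9e-06), Hoxd10 2.64, 1.87 and 2.74 against 4.45, 3.38 and 3.15 (-0.45 ± 0.11, adjusted p = 0.0044), and Hoxa7 0.890, 0.948 and 0.978 against 1.51, 1.58 and 1.53 (-0.39 ± 0.07, adjusted p = 0.00059). No library of one genotype reached the range of the other. Hoxa7 passed the filter only through WT libraries, so the filter favoured its being lower in KO. Hoxa10 (-0.11 ± 0.08, adjusted p = 0.25) and Hoxa11 (-0.02 ± 0.08, adjusted p = 0.8), both lower in KO DMSO, were not called here. Hoxa13 was lower in KO under DMSO and higher with NT siRNA.

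HoxC did not pass the filter in the siRNA table, since its highest library value was 0.784 RPKM, for Hoxc10. Hoxc10 had 112 reads over the 3 KO NT libraries and none in WT, at least 37.97-fold higher against a floor of 3 reads over the WT group. limma-voom on the recovered reads tested 25 members and called 14 higher and 5 lower in KO with NT siRNA (58.5% of genes called, 29.9% higher and 28.6% lower), including 6 of 6 HoxC and 3 of 3 HoxB members. These 9 had 0 to 16 reads over the 3 WT NT libraries and reached the read filter only through KO libraries, so their being higher was fixed by the filter. Mesothelial markers summed to 22.2 to 23.5 RPKM in WT and 196.8 to 223.2 in KO with NT siRNA, and Upk1b and Wt1 were at 0 in WT. In KO 10 of 10 tested were higher, beside 23.7% of all genes tested. A marker at 0 in every WT library could pass the filter only through KO, so the count is no support. The part of these markers in the Hox difference was not tested.

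With H2AZ siRNA the genotypes differed in 7 of 11 members, 3 higher and 4 lower (62.9% of genes called, 20.2% higher and 42.7% lower). Hoxb9 (1.27 ± 0.09), Hoxd8 (0.60 ± 0.07) and Hoxd12 (0.41 ± 0.07) were higher in KO, and Hoxd13 (-0.76 ± 0.05), Hoxd10 (-0.49 ± 0.11), Hoxa9 (-0.49 ± 0.10) and Hoxa7 (-0.44 ± 0.07) were lower. Hoxb9 passed the filter only through KO libraries and Hoxa7 only through WT libraries, so the filter favoured these 2 directions. The median of all genes tested was -0.12 in this comparison, and after median centring Hoxa11 and Hoxa13 were also called, giving 5 higher and 4 lower. Hoxd13 had 20.4, 21.3 and 21.6 RPKM in KO and 36.6, 35.2 and 37.97 in WT, with no overlap. limma-voom called 14 higher and 5 lower of 25 (56.8% of genes called, 29.1% higher and 27.7% lower). The higher ones again include 6 of 6 HoxC and 3 of 3 HoxB members. These reached the read filter only through KO libraries, so their count is no support.

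The last question is what H2A.Z depletion itself changed. In WT 2 of 11 members were called and both were lower (15.3% of all genes tested were called, 4.88% higher and 10.4% lower). Hoxd8 had 2.12, 2.32 and 1.92 RPKM against 2.83, 2.53 and 2.77 with NT (-0.25 ± 0.07, adjusted p = 0.036), and Hoxd12 had 2.96, 3.00 and 3.07 against 4.02, 3.55 and 3.61 (-0.24 ± 0.07, adjusted p = 0.031). Their groups did not overlap, but each call was lost in 10 settings, and neither was made without WT NT siRNA replicate 1 or 3 or without WT H2AZ siRNA replicate 1 or 3. Without WT H2AZ siRNA replicate 2 1 member was called, and the count over all single-library omissions was 0 to 3. limma-voom called neither, and called 1 other member, Hoxa9, lower (14.6% of genes called, 7.25% higher and 7.31% lower).

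In KO 4 of 11 members were lower with H2AZ siRNA and none higher (25.5% of all genes tested were called, 6.56% higher and 19% lower). Hoxa13 had 4.84, 4.18 and 5.40 RPKM against 7.05, 6.92 and 6.52 with NT (-0.43 ± 0.09, adjusted p = 0.0038). Hoxd12 had 3.89, 4.34 and 4.80 RPKM against 5.84, 5.98 and 6.21 (-0.39 ± 0.07, adjusted p = 0.0014), and Hoxd13 had 20.4, 21.3 and 21.6 against 28.2, 26.5 and 27.6 (-0.36 ± 0.05, adjusted p = 0.00054). All treated libraries were below all untreated ones for these 3 genes. Hoxa10 (-0.24 ± 0.08, adjusted p = 0.048) lost its call in 15 of the 21 settings, and after median centring the split was 1 higher, Hoxa11, and 3 lower. Hoxb9 had 1.58, 1.35 and 1.64 RPKM and was not called (-0.08 ± 0.09, adjusted p = 0.57).

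The H2A.Z effect was not shown to differ between genotypes for any member. In the interaction 0 of 11 members were called by limma, 2 had an unadjusted p under 0.05 (Hoxa13 and Hoxd13), and limma-voom also called 0 of 25 (0.00789% of genes called by limma, all higher, and 0.16% by limma-voom, 0.107% higher and 0.0533% lower). Hoxa13 had -0.37 ± 0.12 (adjusted p = 0.42) and Hoxd13 -0.22 ± 0.07 (adjusted p = 0.42).

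A further fit left out 2 libraries of each table that were less like their own groups (WT DAC 3 and KO DAC 1, and WT NT siRNA 1 and KO NT siRNA 1), not the KO DMSO libraries. There 21, 12, 8, 20 and 21 members were called in the 5 decitabine comparisons in the order above, where 22, 13, 8, 21 and 21 had been. In the siRNA table it was 8, 8, 0, 3 and 0, where 8, 7, 2, 4 and 0 had been.

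Genes around the clusters were read from lists chosen with earlier results of these data known. Hox proteins bind DNA with the TALE cofactors of the Pbx, Meis and Pknox families. Of 9 such genes 3 were higher and 1 lower in KO DMSO (19.6% and 22.9% of all genes), with Meis1 at 2.15 ± 0.00844 FPKM in WT and 7.92 ± 0.0567 in KO (SD, n = 2 each; 1.501 ± 0.079, adjusted p = 1.3e-06) and Pbx4 at 0.904 ± 0.384 and 4.19 ± 0.524 (1.46 ± 0.14, adjusted p = 5e-05). With DAC in KO 6 of 9 were lower (21.6% of all genes) and none higher, Meis1 reaching 2.16 ± 0.148 FPKM (SD, n = 3; -1.499 ± 0.072, adjusted p = 9.1e-07). In WT DAC 4 were lower (13.8% of all genes) and none higher, led by Pbx3 (-0.62 ± 0.08, adjusted p = 0.00057).

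Limb and body position factors went both ways between the genotypes. Of 10 tested 4 were higher and 5 lower in KO DMSO (median difference -0.396), beside 19.6% and 22.9% of all genes. Of 8 tested with NT siRNA 5 were higher and 2 lower (median 0.812), beside 23.7% and 40.4%. The list as a whole did not keep its direction. Tbx5, a forelimb and heart gene, had 28.0 ± 0.883 FPKM in WT DMSO and 0.231 ± 0.0382 in KO DMSO (-4.56 ± 0.12, adjusted p = 2.6e-08). Tbx4, a hindlimb and lung gene, had 0.312 ± 0.0345 and 9.48 ± 0.532 (3.00 ± 0.11, adjusted p = 1.7e-07). Both kept that direction with NT siRNA, at 2.62 ± 0.326 RPKM in WT and 0.343 ± 0.0331 in KO for Tbx5 and 0.297 ± 0.0321 and 6.33 ± 0.604 for Tbx4 (SD, n = 3 each).

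Outside the cluster ends, 12 protein-coding neighbours were tested, 5 higher and 3 lower in KO DMSO, beside the same shares of all genes. Evx2, the homeobox gene next to Hoxd13, had 5.26 ± 0.0792 FPKM in WT DMSO and 1.079 ± 0.0289 in KO DMSO (-1.59 ± 0.09, adjusted p = 1.7e-06), and 1.87 ± 0.0216 in WT DAC (-1.13 ± 0.08, adjusted p = 3.3e-05). Lnpk, on the same side of HoxD, had 10.2 ± 0.340 and 5.12 ± 0.0740 (-0.87 ± 0.13, adjusted p = 0.00065). The median difference of all other tested genes was 0.16 on chromosome 6, 0.165 on 11, 0.02 on 15 and -0.045 on 2 for KO against WT in DMSO, beside cluster medians of -1.25, 1.69, 1.96 and -1.36.

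Of the noncoding transcripts in the clusters 3 were tested in the decitabine table. Hoxa11os, antisense to Hoxa11, was lower in KO DMSO, at 1.95 ± 0.572 and 0.369 ± 0.0864 FPKM (-1.10 ± 0.17, adjusted p = 0.00078). Halr1, near HoxA, had 0 in WT DMSO and 1.40 ± 0.120 in KO DMSO. Gm53, a long noncoding RNA in the HoxB region, had 0.210 ± 0.00762 and 7.73 ± 0.298 (2.85 ± 0.14, adjusted p = 9.8e-07). Halr1 and Gm53 were under 1 FPKM in WT DMSO and passed the filter only through other groups, which favoured their rise. Genes that overlap on a strand or across strands, such as Hoxa11 and Hoxa11os, Hoxb3 and Hoxb4, Hoxd3 and Hoxd4, Hoxd10 and Hoxd11, cannot be fully separated, since the kit marks strand but how strand was used in counting is not given in the sources read. Of a list of 9 upstream patterning regulators (Cdx genes, Gdf11, genes of retinoic acid and others) 5 were tested. In KO DMSO 3 were higher and 2 lower, beside 19.6% and 22.9% of all genes. As the list went both ways, Aldh1a2 does not stand for it. Aldh1a2, which makes retinoic acid, a signal that acts on Hox genes, had 0.170 ± 0.0371 FPKM in WT DMSO, 37.2 ± 1.09 in KO DMSO and 1.38 ± 0.178 in KO DAC.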

How the data were processed

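RNA was measured in 22 libraries of mouse embryonic fibroblasts from rRNA-depleted, stranded total RNA kits, read as paired ends of 150 bases, per the labels' protocols. The authors deposited FPKM for the decitabine experiment and RPKM for the siRNA experiment, both scaled to gene length and library size. The submitters' processing notes name STAR, Bowtie2, deepTools and mm10, without versions; the counting tool, its strand setting and the annotation are not given there or in the labels. Values above 0 came out as whole reads for 35023 of 35023 genes (100%, tolerance 0.01 reads), which gave the library totals.

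Each table was tested on its own with limma 3.58.1 (R 4.3.3), with an intensity trend, on log2(value + 1), over all 4 groups, for genes at 1 or more in at least 2 (decitabine) or 3 (siRNA) libraries. P-values were Benjamini-Hochberg adjusted over all genes tested, and calls were made under 0.05. limma-voom on the recovered reads used trimmed-mean (TMM) or median-ratio scaling, computed directly. Both tests were tested on simulated data. Tables and plots used Python 3.11.15, pandas 2.3.3 and matplotlib 3.10.9. The members and lists were chosen with earlier results of these data known. Full values are given, per comparison, for up to 4 called members with the largest rise and 4 with the largest fall among those with a mean of 1 or more in the higher group, and for the highest member of each cluster; other members were added after their values were seen. Alternatives were another pseudocount, other filters, median centring, a replicate block, only the groups compared, limma-voom, a fold threshold and leaving out each library. Further fits were added after seeing the data, without 2 libraries per table less like their groups and without a KO DMSO library with the genes tested kept. Same-numbered KO NT and KO H2AZ siRNA libraries deviated together (correlations of 0.156, 0.144 and 0.27 across genes), and different-numbered ones ran from -0.248 to 0.063. Over all groups different-numbered pairs reached 0.188 in the siRNA and 0.346 in the decitabine table. Pairing by number is therefore possible but not shown, and the labels give no shared source. The CUT&Tag samples were not used here.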

Additional observations from a re-analysis of the deposited data

Results flagged for a closer look

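For 21 of the 24 Hox genes tested in the decitabine table, the effect of decitabine differed between genotypes by the limma interaction test (effect in KO minus effect in WT, log2(FPKM + 1) scale, adjusted p under 0.05). Over all genes tested 24.1% were called, 12.4% higher and 11.7% lower. In HoxA the differences were 1.00 for Hoxa5, 0.99 for Hoxa7, 1.40 for Hoxa9, 1.47 for Hoxa10, 1.27 for Hoxa11 and 1.35 for Hoxa13. In HoxD they were 1.60 for Hoxd9, 0.83 for Hoxd10, 1.11 for Hoxd11, 0.83 for Hoxd12 and 1.20 for Hoxd13, and the call for Hoxd10 was lost without KO DMSO replicate 2. In HoxB they were -1.16 for Hoxb5, -1.42 for Hoxb6, -1.09 for Hoxb7, -0.85 for Hoxb8 and -1.97 for Hoxb9. In HoxC they were -1.45 for Hoxc4, -1.20 for Hoxc6, -1.26 for Hoxc8, -1.55 for Hoxc9 and -1.16 for Hoxc10. The HoxB and HoxC genes reached the filter only through KO libraries, most of them only through KO DMSO, so their count is no support. Of these 10 limma-voom called Hoxb5 and Hoxb9.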

How the results depend on the processing

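Of 106 calls of a member in a comparison, 86 were made in every setting that tested the member, leaving aside the threshold on the log2 change, 20 were lost in some and 0 changed sign. Many HoxB and HoxC calls were not tested in some settings, such as those without a KO DMSO library. With a filter at 5, the counts of members called were 8 for KO against WT in DMSO, 6 in DAC, 8 for DAC in KO, 9 for the decitabine interaction, 3 with NT siRNA, 2 with H2AZ siRNA and 1 for H2AZ siRNA in WT; fewer members are tested there. With only the groups compared they were 5 for KO against WT in DAC and 1 for H2AZ siRNA in WT. With a log2 change of at least 1 they were 2 for KO against WT in DAC, 1 for DAC in WT, 13 for DAC in KO, 1 with NT siRNA, 1 with H2AZ siRNA, and 0 for H2AZ siRNA in WT and in KO. More members were tested with no filter, which gave 22 with NT siRNA, 18 with H2AZ siRNA and 0 for H2AZ siRNA in WT, and by limma-voom with either scaling, which gave 19, 19 and 1. H2AZ siRNA in WT gave 1 with median centring and 0 without the 2 libraries less like their groups. The cause was not tested where none is named.

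Leaving out 1 library at a time gave 13 to 23 members for KO against WT in DMSO, 7 to 14 in DAC, 7 to 9 for DAC in WT, 11 to 21 for DAC in KO, 12 to 21 for the decitabine interaction, 8 to 9 with NT siRNA, 7 with H2AZ siRNA in every case, 0 to 3 for H2AZ siRNA in WT and 3 to 4 in KO. With the genes tested kept, KO DMSO replicate 1 or 2 left out gave 21 and 21, 12 and 12, 8 and 8, 21 and 19, and 22 and 21 in the 5 decitabine comparisons.

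Median centring moved the HoxA sum to 50.7 FPKM in WT DMSO, 23.8 RPKM in WT and 24.5 in KO with H2AZ siRNA. It moved the HoxB sum to 20.9 FPKM in KO DMSO, 4.91 in KO DAC and 2.92 RPKM in KO with H2AZ siRNA, and the HoxD sum to 185.0 FPKM in WT DMSO and to 49.5, 46.3 and 36.9 RPKM in WT NT, WT H2AZ and KO H2AZ siRNA.

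Outside KO NT against KO H2AZ siRNA, no set of 3 same-numbered pairs had every correlation over 0.1 (all pairs ran from -0.225 to 0.126 for decitabine and -0.104 to 0.319 for siRNA libraries). A replicate block gave 22, 12, 7, 21 and 21 members called in the decitabine comparisons and 8, 7, 3, 4 and 0 in the siRNA comparisons, and it changed no call for H2AZ siRNA in KO. A group of 2 or 3 libraries limits how small a difference can be called.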

Other observations

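Marker lists of other cell types had few genes tested for KO against WT in DMSO by limma. Over all genes tested 19.6% were higher and 22.9% lower, and lists of 1 to 4 genes are too short to be set against these shares. Of macrophage markers 3 were tested (1 higher, 1 lower), of endothelial markers 2 (1 higher, 1 lower), of epithelial markers 4 (2 higher, 0 lower), of skeletal muscle markers 1 (higher), of neural markers 2 (0 higher, 1 lower) and of chondrocyte markers 2 (0 higher, 1 lower).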
